A study of Homo sapiens with 18 samples.

Results

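The 9 genes described here belong to the interleukin-6 (IL6) cytokine family: the ligands IL6, LIF, IL11 and CLCF1, the receptor chains IL6R, IL6ST, LIFR and OSMR, and the feedback inhibitor SOCS3. They were chosen by symbol, and all 9 were found among 28266 gene rows and passed the filter that left 14341 genes tested. The poly(A) RNA came from IMR90 ER:RAS cells, human lung fibroblasts with an inducible ER:RAS fusion, which every group carries. Senescent cells had received 100 nM 4-hydroxytamoxifen (4OHT), which switches the fusion on, and control cells had received DMSO. Both were grown for 7 days and then given 300 nM IMP1088, 1.5 µM DDD86481 or DMSO over the last 3 days before collection on day 10. IMP1088 and DDD86481 inhibit N-myristoyltransferases (NMTi), the enzymes that attach a myristoyl lipid to the N-terminal glycine of target proteins. The design gave 6 groups of 3 libraries with 16143716 to 23189950 counts each. The line is a single engineered model, and the labels do not say that replicates were separate cultures, so that p-values measure only the spread between these libraries.

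IL6 and IL11 each bind a private receptor chain (IL6R for IL6, IL11RA for IL11) that pairs with the shared signalling chain gp130, the product of IL6ST. LIF and CLCF1 share the chain LIFR, which also pairs with gp130. The assembled receptor activates JAK kinases, which phosphorylate STAT3, and STAT3 in turn induces SOCS3, a protein that binds gp130 and the kinases and shuts the signal off. OSMR pairs with gp130 for oncostatin M and with IL31RA for IL31. IL6 is among the best known secreted products of senescent fibroblasts, whose mixture of cytokines, growth factors and proteases is called the senescence-associated secretory phenotype (SASP).

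The labels matched CDKN1A, the only gene of those fixed for this check whose values are given here. CDKN1A, which encodes the cell cycle inhibitor p21, lay at 341 to 410 CPM (counts scaled to the size of the library) in control DMSO libraries and at 1952 to 2265 CPM in senescent DMSO libraries. Fibroblast markers summed to 24831 to 31466 CPM in control DMSO, 16646 to 17064 in senescent DMSO and 11559 to 12347 in senescent cells with an inhibitor. All 10 listed fibroblast genes were measured, and 8 of the 10 were lower in senescence with DMSO, so the type was checked by genes that themselves moved. Markers of epithelium and leukocytes summed to at most 1.54 and 1.10 CPM in any library, with KRT5, SFTPC and CD3E among those at 0 throughout, and endothelial markers to 31.9 to 55.4 CPM in control, 35.9 to 44.8 in senescent DMSO and 14.7 to 25.8 in senescent cells with an inhibitor. Within that sum 4 of the 5 tested endothelial genes were higher and 1 lower in senescence with DMSO (median log2 fold change 3.73), and 4 and 3 of them were lower with IMP1088 and DDD86481 in senescent cells. The part of these markers in the results below was not tested, and in bulk RNA fewer cells of a type and less RNA per cell cannot be told apart. One library stood apart for several of the 9 genes: control DMSO replicate 3 held less IL6ST, LIFR and OSMR and more IL6 than replicates 1 and 2. Over all genes this library also stood apart, with a chi-square per gene of 104 and 52.3 against replicates 1 and 2. No other pair of libraries within a group passed 27.9. Results of the 9 genes that control DMSO replicate 3 moved by much are therefore also given without it. Values of the marker and pathway genes are given only with it.

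The genes lie at chr7:22727200-22731998 (IL6, plus strand), chr22:30240453-30246759 (LIF), chr19:55364382-55370463 (IL11, minus), chr11:67364168-67374177 (CLCF1), chr1:154405343-154469450 (IL6R, plus) and chr17:78356778-78360925 (SOCS3, minus) in GRCh38.p14. The remaining receptor genes all lie on chromosome 5, at chr5:55935095-55994963 (IL6ST, minus), chr5:38474668-38608403 (LIFR, minus) and chr5:38846012-38945579 (OSMR, plus). The antisense genes IL6-AS1 and LIFR-AS1 cover 9.91% of the exonic bases of IL6 and 5.17% of those of LIFR in GENCODE, and an unnamed gene on the opposite strand covers 6.61% of IL6ST. The strand setting of the authors' counting was not settled, so reads from these stretches cannot be told apart from those of the named genes.

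Promoter sequences are shown for IL6 and IL11, the pair of ligands with a listed motif, and for LIFR, the receptor that fell most. RefSeq (GRCh38.p14) promoter windows of 300 bases, 250 before to 50 after the start, were found for 7 of the 9 genes, and LIF and CLCF1 had no entry. The 200 bases before the start are printed 5′ to 3′ on the gene's strand, with capitals marking the only matches to the listed motifs.
IL6, chr7:22727000-22727199, plus strand: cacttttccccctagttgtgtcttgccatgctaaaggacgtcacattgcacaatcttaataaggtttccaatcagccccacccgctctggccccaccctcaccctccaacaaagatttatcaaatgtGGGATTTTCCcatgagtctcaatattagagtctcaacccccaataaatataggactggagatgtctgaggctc
IL11, chr19:55370464-55370663, minus strand: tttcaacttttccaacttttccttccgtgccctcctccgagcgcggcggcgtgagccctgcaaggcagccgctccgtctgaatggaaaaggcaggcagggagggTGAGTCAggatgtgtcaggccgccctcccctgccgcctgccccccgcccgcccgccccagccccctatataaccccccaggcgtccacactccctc
LIFR, chr5:38595406-38595605, minus strand, the first of 3 windows listed for this gene: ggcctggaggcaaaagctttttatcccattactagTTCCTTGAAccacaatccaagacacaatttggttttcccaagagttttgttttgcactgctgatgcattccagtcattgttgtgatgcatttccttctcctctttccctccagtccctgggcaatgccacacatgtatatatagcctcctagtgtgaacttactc
The capitals in IL6 match the NF-kappaB motif from base -73, with any base allowed at the fourth and the fifth letter, a motif held by 1.91% of all 35116 windows of this length. Those in IL11 match the AP-1 motif TGANTCA from base -96, held by 7.71% of windows and also by the IL6R and OSMR windows, just after their starts at bases 37 and 3. Those in LIFR match the STAT motif TTCNNNGAA from base -165, held by 7.66% of windows. The printed LIFR window lies inside the gene, whose 5′ end on the minus strand is at 38608403, so its start is an internal one. The other windows listed for LIFR were not searched. The cAMP response motif TGACGTCA, the C/EBP-ATF motif TGATGNAA and the C/EBP motif TTGCGCAA, held by 1.85%, 3.62% and 0.151% of windows, had no exact match in the 7 windows. Near matches were not searched for, and the printed IL6 sequence holds ggacgtca and ttgcacaa. The lack of an exact match is therefore not the lack of a site. Both strands were searched, no matches overlapped, and a match is a run of letters and not evidence of binding.

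Levels per kilobase of exon, which allow one gene to be set beside another, showed a different order in the 2 states. In control DMSO cells the means were 57.7 ± 17.1 CPM per kilobase for IL6ST, 36.9 ± 10.99 for OSMR, 28.5 ± 5.10 for SOCS3 and 21.5 ± 3.76 for LIF (SD, n = 3). LIFR followed at 9.28 ± 2.00, IL6 at 5.40 ± 2.64, CLCF1 at 5.10 ± 0.17, IL11 at 2.56 ± 0.60 and IL6R at 2.36 ± 0.086 CPM per kilobase. The receptor chains IL6ST and OSMR thus led the order, and IL11 and the receptor chain IL6R stood at its end. The libraries of neighbouring genes overlapped except between LIF and LIFR and between CLCF1 and IL11. In senescent DMSO cells IL11 (286 ± 43.9) and LIF (247 ± 22.4) stood highest on this scale, with overlapping libraries. IL6 (39.0 ± 5.50), OSMR (38.0 ± 4.39), IL6ST (37.2 ± 3.60) and SOCS3 (36.3 ± 1.98) followed within 1 overlapping range. CLCF1 (5.93 ± 0.67), LIFR (1.34 ± 0.27) and IL6R (0.73 ± 0.044) came last and did not overlap with one another.

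To ask what oncogene-induced senescence did to the family, senescent and control cells that both received DMSO were compared. IL11, LIF and IL6 transcripts rose by 113-fold, 11.5-fold and 7.26-fold, while LIFR, IL6R and IL6ST, which encode receptor chains for LIF and IL6, fell by 6.92-fold, 3.21-fold and 1.55-fold. CLCF1, OSMR and SOCS3 did not pass the test (edgeR quasi-likelihood, Benjamini-Hochberg adjusted p under 0.05 over all genes). The 6 of 9 genes called stand beside 68.5% of all genes tested, 32.5% higher and 36% lower, so that the count itself is near the background.

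IL6 lay at 12.3, 22.6 and 35.1 CPM in control DMSO replicates 1 to 3 and at 144, 191 and 171 CPM in senescent DMSO replicates. Every senescent library stood above every control library, and the log2 fold change was 2.86 ± 0.29 (SE, adjusted p = 2.45e-08). Without control DMSO replicate 3, the highest of the controls, it was 3.27 (adjusted p = 2.67e-10). LIF, which signals through LIFR and gp130, lay at 69.0, 83.0 and 98.1 CPM in control DMSO and at 947, 1047 and 874 CPM in senescent DMSO, which was 3.52 ± 0.17 as a log2 fold change (adjusted p = 3.05e-13). IL11, a cytokine tied to fibroblast activation, lay at 6.01, 5.83 and 8.71 CPM against 833, 631 and 835 CPM, which was 6.81 ± 0.29 as a log2 fold change (adjusted p = 2.34e-14). Without control DMSO replicate 3 the log2 fold changes of LIF and IL11 were 3.65 and 7.01. The control values of IL11 rest on 145 to 175 counts per library, far above the floor of 3 counts. CLCF1, a ligand that signals through LIFR and gp130, lay at 9.23, 9.13 and 9.70 CPM against 10.1, 10.2 and 12.3 CPM. The senescent libraries of CLCF1 stood above the controls, but the log2 fold change of 0.22 ± 0.17 did not pass the test (adjusted p = 0.25).

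**Figure D1:**
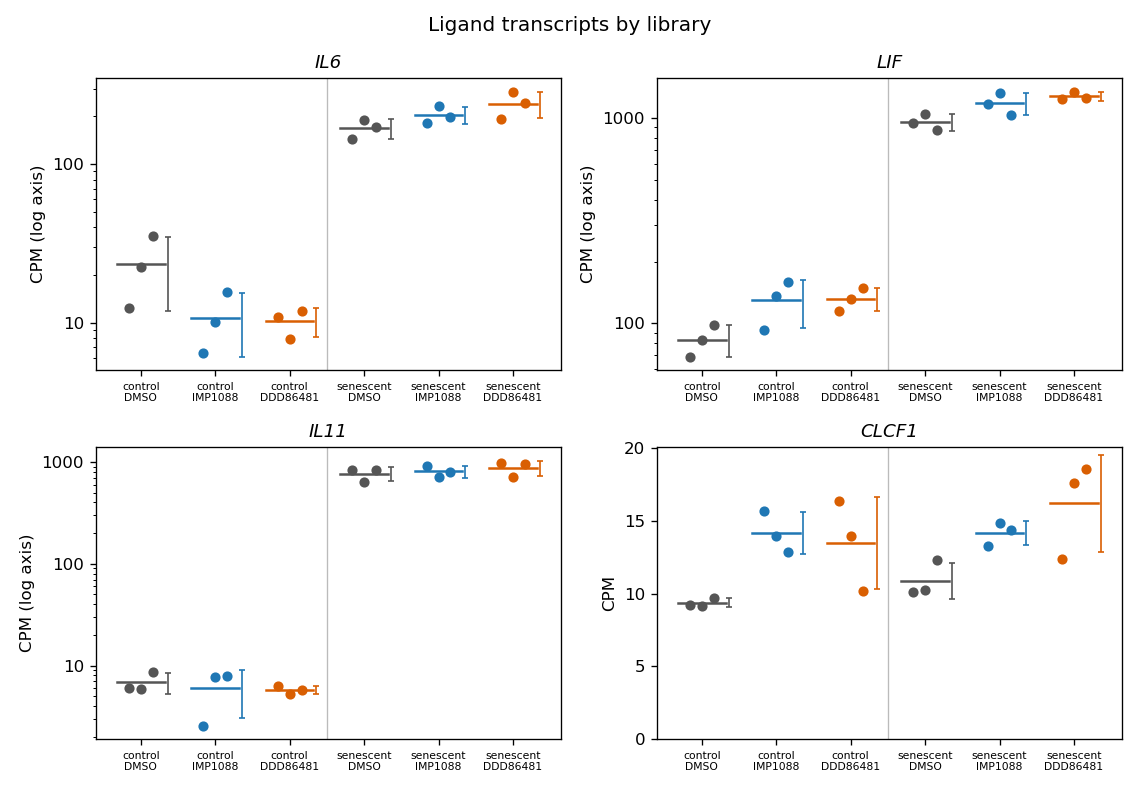
CPM of IL6, LIF and IL11 on log axes and of CLCF1 on a linear axis, with 1 point per library in each of the 6 groups, a line at the mean and a bar of 1 SD (n = 3). The senescent libraries of IL6, LIF and IL11 lie above all control libraries under each treatment, and IL6 in control cells is lower with either inhibitor than the DMSO mean of 23.3 CPM.

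IL6ST, the shared chain, lay at 869, 751 and 469 CPM in control DMSO and at 450, 491 and 404 CPM in senescent DMSO. Replicate 3 of the controls fell within the range of the senescent libraries, and the log2 fold change was -0.64 ± 0.15 (adjusted p = 0.000949), or -0.85 without that replicate (adjusted p = 1.51e-07). IL6R, the chain that binds IL6 itself, went from 17.0, 15.9 and 16.5 CPM to 4.88, 5.48 and 5.05 CPM (log2 fold change -1.68 ± 0.12, adjusted p = 1.13e-10). LIFR went from 125, 129 and 84.9 CPM to 18.7, 17.8 and 12.5 CPM (-2.79 ± 0.16, adjusted p = 4.99e-12), without any overlap between the groups, and by -2.96 without control DMSO replicate 3. OSMR lay at 328, 289 and 176 CPM in control DMSO and at 297, 284 and 237 CPM in senescent DMSO. Its libraries overlapped, and its log2 fold change was 0.042 ± 0.16 (adjusted p = 0.826) with all libraries and -0.18 (adjusted p = 0.175) without control DMSO replicate 3. When libraries were scaled by their upper quartile it was -0.11 (adjusted p = 0.547), so no direction is given for OSMR here.

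SOCS3 lay at 94.0, 68.7 and 71.3 CPM in control DMSO and at 96.6, 95.9 and 106 CPM in senescent DMSO. All senescent libraries were above the controls, yet control replicate 1 came close to them, and the log2 fold change of 0.35 ± 0.18 missed the threshold (adjusted p = 0.0879). Without control replicate 1 it was 0.51 (adjusted p = 0.019), without control replicate 3 it was 0.29 (adjusted p = 0.176), in a fit of the 6 libraries compared 0.37 (adjusted p = 0.0389) and without a filter on low counts 0.38 (adjusted p = 0.0127). Control replicate 1 was also the highest for SOCS3 with IMP1088 (113 CPM, against 68.6 and 68.6) and with DDD86481 (98.4 CPM, against 73.1 and 66.3).

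**Figure D2:**
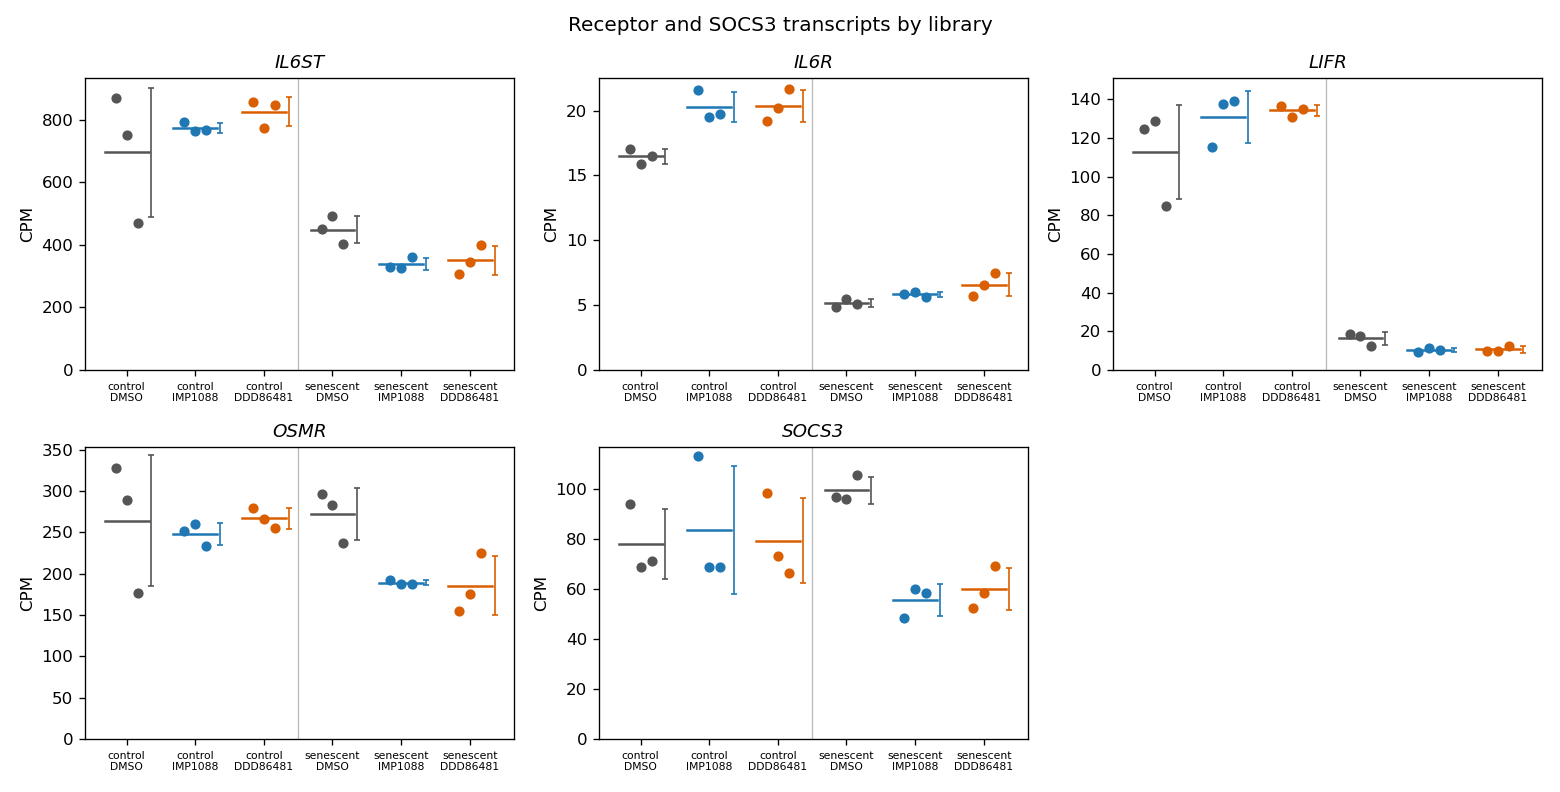
CPM of IL6ST, IL6R, LIFR, OSMR and SOCS3 on linear axes, with 1 point per library, a line at the group mean and a bar of 1 SD (n = 3). LIFR and IL6R are low in all senescent groups, control DMSO replicate 3 is the lowest control library of IL6ST, LIFR and OSMR, and SOCS3 and OSMR drop with the inhibitors in senescent cells.

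The relation of ligand to receptor transcripts within a library shifted with these changes. Per kilobase, the ratio of LIF to LIFR had a median of 2.02 in control DMSO (1.74 to 3.63) and 185 in senescent DMSO (159 to 219). The ratio of IL6ST to LIFR went from a median of 5.88 to 27.8, and that of IL6ST to IL6R from 27.5 to 51.9. The ratio of IL6ST to OSMR went from 1.57 to 1.01. These are ratios of transcript levels, and no protein was measured here.

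The first question about the inhibitors was what they did to the family in senescent cells, compared with senescent DMSO cells. IMP1088 lowered 4 of the 9 genes, all of them receptor chains or SOCS3, and raised none, beside 44.4% of all genes called (20.6% higher, 23.9% lower). DDD86481, at its own dose, lowered 3 and raised 3, beside 43.2% of all genes (20.1% higher, 23.1% lower). The first share, 4 of 9, equals the background, and neither IL6 nor IL11 passed with either inhibitor. The doses of the inhibitors differed, so their values are given side by side, and both comparisons share the senescent DMSO libraries.

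SOCS3 was 96.6, 95.9 and 106 CPM with DMSO, 48.3, 59.7 and 58.5 CPM with IMP1088 and 52.5, 58.3 and 69.2 CPM with DDD86481. No inhibitor library reached the DMSO libraries. The log2 fold changes were -0.84 ± 0.18 with IMP1088 (adjusted p = 0.000764) and -0.73 ± 0.18 with DDD86481 (adjusted p = 0.00261), and both calls were kept in every alternative fit. LIFR, at 18.7, 17.8 and 12.5 CPM with DMSO, was 9.21, 11.6 and 10.3 CPM with IMP1088 (-0.65 ± 0.17, adjusted p = 0.00385). With DDD86481 LIFR was 9.77, 9.72 and 12.6 CPM (-0.61 ± 0.17, adjusted p = 0.00645), where the highest inhibitor library just passed the lowest DMSO library. OSMR went from 297, 284 and 237 CPM to 193, 188 and 188 CPM with IMP1088 (-0.52 ± 0.16, adjusted p = 0.012). With DDD86481 OSMR was 155, 176 and 225 CPM (-0.56 ± 0.16, adjusted p = 0.00871). The OSMR calls were lost in the fits without senescent DMSO replicate 1 for IMP1088 (adjusted p = 0.0548) and without senescent DDD86481 replicate 1 for DDD86481 (adjusted p = 0.0561).

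IL6ST was 329, 325 and 361 CPM with IMP1088, below the 404 to 491 CPM of senescent DMSO (log2 fold change -0.40 ± 0.15, adjusted p = 0.0356). With DDD86481 it was 307, 345 and 400 CPM (-0.35 ± 0.15), which missed the threshold (adjusted p = 0.0661) but passed in a fit of only those 6 libraries (adjusted p = 0.0279), without a filter on low counts (adjusted p = 0.0145) and without senescent DDD86481 replicate 3 (adjusted p = 0.0357). With IMP1088 it missed the threshold in 4 of the 6 fits that left out 1 library, those without senescent DMSO replicate 1 or 2 or without senescent IMP1088 replicate 1 or 2 (highest adjusted p = 0.132). IL6R was 5.84, 6.04 and 5.61 CPM with IMP1088 (0.18 ± 0.13, adjusted p = 0.265) and 5.68, 6.58 and 7.48 CPM with DDD86481 (0.35 ± 0.13, adjusted p = 0.0296). The latter call was lost in 4 of 6 such fits, those without senescent DMSO replicate 1 or 3 or senescent DDD86481 replicate 2 or 3, and also in the fit of only the 6 libraries compared (adjusted p = 0.0746) and without a filter on low counts (adjusted p = 0.118).

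Among the ligands, IL6 in senescent cells was 182, 233 and 198 CPM with IMP1088 and 194, 285 and 245 CPM with DDD86481. These libraries overlapped with DMSO for IMP1088 and all lay above it for DDD86481, but neither log2 fold change passed: 0.28 (95% interval -0.27 to 0.83, adjusted p = 0.416) and 0.52 (-0.03 to 1.07, adjusted p = 0.121). In fits of only the 6 libraries compared, IL6 passed as higher with IMP1088 (0.31, adjusted p = 0.0073) and with DDD86481 (0.55, adjusted p = 0.0029), and the latter also without a filter on low counts (adjusted p = 0.00969). IL11 stayed at 707 to 922 CPM with IMP1088 and 708 to 981 CPM with DDD86481, with log2 fold changes of 0.07 (-0.37 to 0.52, adjusted p = 0.813) and 0.20 (-0.25 to 0.65, adjusted p = 0.477). LIF was 1175, 1327 and 1030 CPM with IMP1088 (0.30 ± 0.16, adjusted p = 0.128) and 1233, 1343 and 1248 CPM with DDD86481 (0.42 ± 0.16, adjusted p = 0.0378). LIF with DDD86481 missed the threshold in 5 of the 6 fits that left out 1 library, all but that without senescent DMSO replicate 2 (highest adjusted p = 0.133). CLCF1 was 13.3, 14.9 and 14.4 CPM with IMP1088 (0.38 ± 0.17, adjusted p = 0.0718) and 12.4, 17.6 and 18.6 CPM with DDD86481 (0.57 ± 0.17, adjusted p = 0.00861). All inhibitor libraries of CLCF1 were above the senescent DMSO libraries, which lay at 10.1 to 12.3 CPM. With IMP1088, LIF and CLCF1 also passed in the fit of only the 6 libraries compared (adjusted p = 0.00194 and 0.00486).

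**Figure D3:**
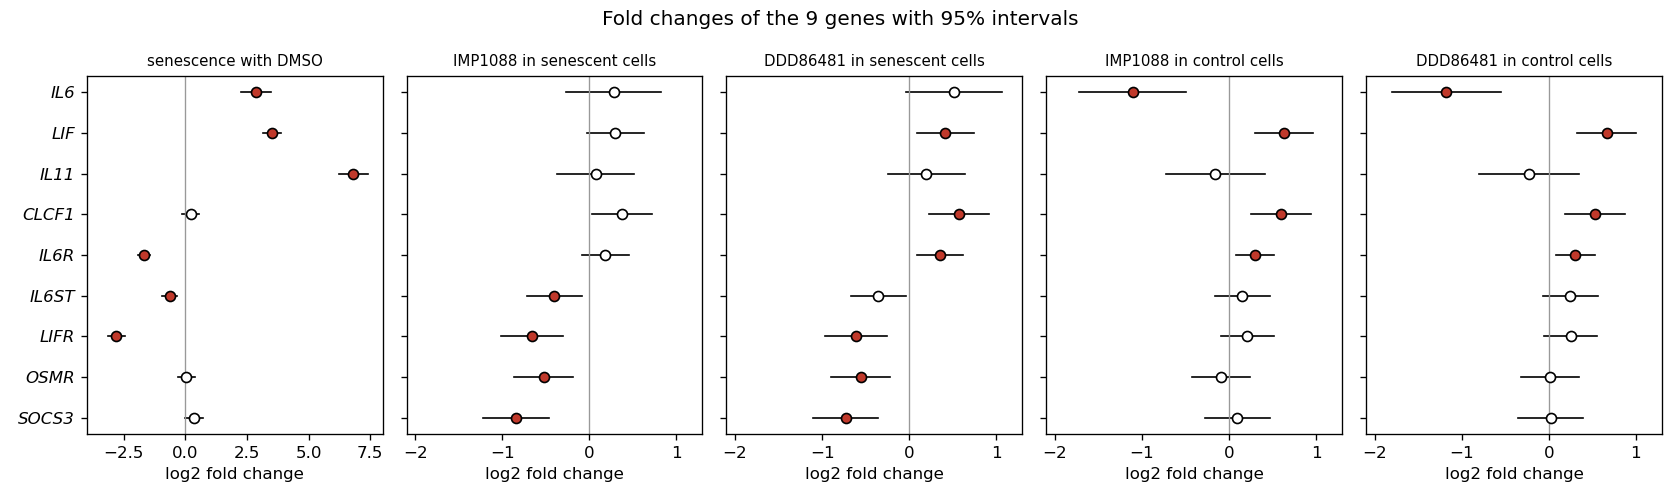
Log2 fold change of each gene with its 95% interval in the 5 comparisons with DMSO cells, where filled points passed an adjusted p of 0.05 and the first panel has a wider axis. Senescence moved IL11 by 6.81 and LIFR by -2.79, whereas every inhibitor effect lay between -1.18 and 0.66.

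The same inhibitors were then compared with DMSO in control cells. Here IL6 fell and LIF, CLCF1 and IL6R rose with each inhibitor, 4 of 9 genes beside 33.7% of all genes with IMP1088 (16.3% higher, 17.4% lower) and 36.6% with DDD86481 (17.8% higher, 18.7% lower). IL6 was 6.42, 10.2 and 15.7 CPM with IMP1088 and 10.9, 7.90 and 11.9 CPM with DDD86481, against 12.3, 22.6 and 35.1 CPM with DMSO. IL6 thus changed by -1.11 ± 0.30 (adjusted p = 0.00691) and -1.18 ± 0.30 (adjusted p = 0.00462) as log2 fold changes. Without control DMSO replicate 3, the library with the most IL6 of the 9 control libraries, they were -0.70 (adjusted p = 0.0523) and -0.76 (adjusted p = 0.0347). The call with IMP1088 was lost in that fit and in the fit of only the 6 libraries compared (-1.11, adjusted p = 0.0871). IMP1088 replicate 3, at 15.7 CPM, also lay above DMSO replicate 1, at 12.3 CPM. Each IMP1088 library held less IL6 than the DMSO library of the same number, but no label states that pairing. The fit with a replicate block, which ties the numbers across all 6 groups, gave -1.09 (adjusted p = 0.00188).

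LIF in control cells was 92.7, 136 and 160 CPM with IMP1088 (log2 fold change 0.63 ± 0.16, adjusted p = 0.00449) and 115, 132 and 148 CPM with DDD86481 (0.66 ± 0.16, adjusted p = 0.00313), against 69.0 to 98.1 CPM with DMSO. Only the lowest IMP1088 library of LIF lay within the DMSO range. CLCF1 was 15.7, 13.9 and 12.9 CPM with IMP1088 (0.60 ± 0.16, adjusted p = 0.00802) and 16.4, 13.9 and 10.1 CPM with DDD86481 (0.53 ± 0.16, adjusted p = 0.0172), all above the 9.13 to 9.70 CPM of DMSO. The latter call was lost without control DDD86481 replicate 1 (adjusted p = 0.119). IL6R was 21.6, 19.5 and 19.7 CPM and 19.2, 20.2 and 21.6 CPM, against 15.9 to 17.0 CPM with DMSO. Its libraries did not overlap, but its log2 fold changes of 0.30 ± 0.11 (adjusted p = 0.0364) and 0.31 ± 0.11 (adjusted p = 0.0306) were lost in 5 and 4 of the 6 fits that left out 1 library. With IMP1088 only the fit without control DMSO replicate 1 kept it, and with DDD86481 those without control DMSO replicate 1 or control DDD86481 replicate 1. The IL6R calls were also lost without a filter on low counts (adjusted p = 0.126 with IMP1088 and 0.105 with DDD86481). In fits of the 6 control libraries of each comparison alone, 1 of 9 genes (CLCF1) passed with IMP1088 and 2 of 9 (IL6 and LIF) with DDD86481. IL11, IL6ST, LIFR, OSMR and SOCS3 did not pass with either inhibitor, with log2 fold changes between -0.23 and 0.25. OSMR passed with IMP1088 without control DMSO replicate 3 (-0.31, adjusted p = 0.049), and IL6ST passed with DDD86481 without control DMSO replicate 1 (0.44, adjusted p = 0.0182). IL11 was 2.56 CPM in control IMP1088 replicate 1 and 7.70 and 7.92 CPM in replicates 2 and 3.

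Whether an inhibitor acted differently in senescent and control cells was tested as an interaction, which passed for 26.2% of all genes with IMP1088 (12.1% positive, 14.2% negative) and 30.3% with DDD86481 (14.4% positive, 15.9% negative). IL6 differed for each inhibitor, by 1.38 ± 0.40 with IMP1088 (adjusted p = 0.0146) and 1.69 ± 0.40 with DDD86481 (adjusted p = 0.00388) in log2 units, the effect in senescent cells being the higher. Without control DMSO replicate 3 the IL6 differences were 0.97 (adjusted p = 0.0376) and 1.28 (adjusted p = 0.00707). LIFR differed by -0.87 ± 0.23 (adjusted p = 0.00826) and -0.86 ± 0.23 (adjusted p = 0.00763), and by -0.70 and -0.69 without that library (adjusted p = 0.00895 and 0.00846). SOCS3 differed by -0.94 ± 0.25 (adjusted p = 0.0102) with IMP1088, by -0.62 without control IMP1088 replicate 1 (adjusted p = 0.0488) and by -0.88 without control DMSO replicate 3 (adjusted p = 0.0154). With DDD86481 it differed by -0.75 ± 0.25 (adjusted p = 0.0305). It missed the threshold in 5 of 12 fits that left out 1 library: control DMSO replicate 2, control DDD86481 replicate 1, senescent DMSO replicate 3 and senescent DDD86481 replicates 1 and 2 (highest adjusted p = 0.126). Without control DMSO replicate 3 it was -0.69 (adjusted p = 0.0494). IL6ST differed by -0.56 ± 0.21 (adjusted p = 0.0591) and -0.60 ± 0.21 (adjusted p = 0.0399). The latter was lost in 8 of 12 such fits, those without control DMSO replicate 2, any control DDD86481 library, senescent DMSO replicate 1 or 2 or senescent DDD86481 replicate 1 or 2 (highest adjusted p = 0.102). Without control DMSO replicate 3, the lowest of the controls for IL6ST, the differences were -0.34 (adjusted p = 0.087) and -0.38 (adjusted p = 0.0499). OSMR did not pass (adjusted p = 0.165 and 0.0636), but passed with each inhibitor without control DMSO replicate 1 (adjusted p = 0.0258 and 0.00733), and with DDD86481 also without senescent DMSO replicate 3 (adjusted p = 0.0488) or senescent DDD86481 replicate 3 (adjusted p = 0.0202). IL6ST with IMP1088 passed without control DMSO replicate 1 (adjusted p = 0.00468), with DESeq2 (adjusted p = 0.0477) and without a filter on low counts (adjusted p = 0.0109). OSMR with DDD86481 also passed without that filter (adjusted p = 0.0103). The IL6ST call with DDD86481 was also lost in the fit of only the groups compared (adjusted p = 0.116). In all, 3 of 9 genes passed with IMP1088 and 4 of 9 with DDD86481.

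Senescent and control cells were also compared under each inhibitor. IL6, LIF and IL11 were higher in senescent cells and IL6R, IL6ST, LIFR, OSMR and SOCS3 lower with each inhibitor, 8 of 9 genes beside 74.1% of all genes with IMP1088 (36.2% higher, 37.9% lower) and 74% with DDD86481 (36.1% higher, 37.9% lower). IL6 rose by 4.25 ± 0.31 and 4.55 ± 0.32 on the log2 scale (adjusted p = 1.64e-10 and 7.07e-11), and LIFR fell to log2 fold changes of -3.66 ± 0.17 and -3.65 ± 0.17 (adjusted p = 1.23e-13 and 1.25e-13). IL6ST changed by -1.19 ± 0.15 and -1.23 ± 0.15 (adjusted p = 6.78e-07 and 4.27e-07). OSMR was lower by -0.39 ± 0.16 (adjusted p = 0.0346) and -0.53 ± 0.16 (adjusted p = 0.00622), and SOCS3 by -0.59 ± 0.18 (adjusted p = 0.0061) and -0.40 ± 0.18 (adjusted p = 0.0497). The OSMR call with IMP1088 was kept only without control IMP1088 replicate 3 among 6 such fits, and the SOCS3 call with IMP1088 was lost without control IMP1088 replicate 1 (-0.31, adjusted p = 0.0946). The SOCS3 call with DDD86481 was lost without control DDD86481 replicate 1 or 2 or senescent DDD86481 replicate 1 or 2 (highest adjusted p = 0.313). CLCF1 did not pass with IMP1088 (log2 fold change -0.0012, adjusted p = 0.995) or DDD86481 (0.26, adjusted p = 0.146), and passed for the latter without control DDD86481 replicate 1 (0.43, adjusted p = 0.0321) or senescent DDD86481 replicate 1 (0.43, adjusted p = 0.022).

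The counts of the pathway lists that follow stand beside the same shares of all genes as those of the 9 members: 32.5% higher and 36% lower in senescence with DMSO, 20.6% and 23.9% with IMP1088 and 20.1% and 23.1% with DDD86481 in senescent cells, and 16.3% and 17.4% with IMP1088 and 17.8% and 18.7% with DDD86481 in control cells. The remaining ligands and receptors of the family were mostly at low levels. OSM, CNTF, IL27, IL31 and CNTFR, which encode oncostatin M, ciliary neurotrophic factor, the IL27 alpha chain, IL31 and the private receptor chain for CNTF and CLCF1, had at most 3 counts in any library, the floor. Of the 11 listed genes, 6 were tested, and in senescence with DMSO 3 rose and 2 fell (median log2 fold change 0.47, against -0.05 over all genes). IL31RA, which pairs with OSMR, rose from 1.17 to 1.85 CPM in control DMSO to 13.6 to 16.8 CPM in senescent DMSO (log2 fold change 3.44 ± 0.19, adjusted p = 2.55e-12). IL11RA, the private chain for IL11, fell from 18.5 to 22.7 CPM to 3.02 to 3.98 CPM (-2.59 ± 0.21, adjusted p = 6.39e-10), while its ligand rose. In senescent cells 3 of these 6 genes fell with each inhibitor and none rose, and in control cells 3 fell with IMP1088 and 2 with DDD86481. IL31RA changed by -1.40 ± 0.17 with IMP1088 (adjusted p = 1.36e-06) and -1.55 ± 0.17 with DDD86481 (adjusted p = 4.67e-07). IL27RA, which pairs with gp130 for IL27, changed by -1.05 ± 0.15 (adjusted p = 1.44e-05) and -1.12 ± 0.15 (adjusted p = 7.88e-06), and IL11RA by -0.79 ± 0.25 (adjusted p = 0.0145) and -0.68 ± 0.25 (adjusted p = 0.0321).

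In the JAK and STAT relay, 5 of 15 genes rose and 7 fell in senescence with DMSO (median 0.06), where 68.5% of all genes were called. The largest changes were those of the adaptor genes SHC1 (1.64 ± 0.10, adjusted p = 1.1e-11) and GAB1 (-1.29 ± 0.17, adjusted p = 1.02e-06) and the kinase gene JAK3 (-1.14 ± 0.20, adjusted p = 5.26e-05). In senescent cells 2 rose and 7 fell with IMP1088 (median -0.32) and 2 rose and 8 fell with DDD86481 (median -0.33). STAT2, which relays interferon signals, rose by 0.83 ± 0.11 (adjusted p = 3.84e-06) and 0.76 ± 0.11 (adjusted p = 1.18e-05), while STAT5A changed by -0.66 ± 0.18 (adjusted p = 0.00428) and -0.75 ± 0.18 (adjusted p = 0.0018). In control cells 6 rose and 1 fell with IMP1088, and 6 rose and none fell with DDD86481. GAB2 rose there by 0.92 ± 0.18 (adjusted p = 0.000759) and 0.96 ± 0.18 (adjusted p = 0.000466). The interaction was negative and passed for 6 of 15 genes with each inhibitor, STAT6 and GAB1 among them. Beside these stand 14.2% of all genes negative with IMP1088 and 15.9% with DDD86481.

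Of the inhibitors of the relay other than SOCS3, 11 of 13 were tested, and PTPN6 and PTPRT had at most 3 counts. In senescence with DMSO 3 rose and 6 fell (median -0.27). SOCS1, which blocks JAK kinases, went from 41.6 to 64.3 CPM to 4.88 to 6.81 CPM (-3.12 ± 0.15, adjusted p = 1.71e-13), CISH changed by -2.08 ± 0.25 (adjusted p = 2.72e-07) and SOCS5 by -1.67 ± 0.12 (adjusted p = 1.58e-10). With the inhibitors in senescent cells SOCS1 changed again, by -1.30 ± 0.18 (adjusted p = 8.78e-06) and -1.19 ± 0.18 (adjusted p = 2.41e-05), and SOCS2, a brake on growth hormone signals, by -1.73 ± 0.17 (adjusted p = 7.62e-08) and -1.86 ± 0.17 (adjusted p = 4.15e-08). SOCS2 also fell in control cells, by 0.88 ± 0.16 (adjusted p = 0.000263) and 0.92 ± 0.16 (adjusted p = 0.000181) in log2 units. In senescent cells 1 of the 11 rose and 4 fell with IMP1088, and 1 rose and 3 fell with DDD86481. In control cells 3 rose and 1 fell with each.

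Known STAT3 target genes other than SOCS3 changed in both directions. Of 33 listed genes 24 were tested, and in senescence with DMSO 16 rose and 8 fell (median 1.11), beside 32.5% of all genes higher and 36% lower. SAA1 and SAA2, acute phase genes so alike that reads may be split between them, had at most 2 and 1 counts in control DMSO libraries and 77 to 130 and 37 to 68 counts in senescent DMSO libraries. A2M, which encodes a protease inhibitor, went from 46.9 to 81.6 CPM to 3.13 to 3.86 CPM (-4.19 ± 0.19, adjusted p = 7.68e-14). In senescent cells 9 rose and 8 fell with each inhibitor (medians -0.02 and 0.13), beside 44.4% and 43.2% of all genes called. FOS, an immediate early gene, rose by 1.72 ± 0.51 (adjusted p = 0.00923) and 2.47 ± 0.50 (adjusted p = 0.000473). The kinase gene PIM1 rose by 1.67 ± 0.14 (adjusted p = 1.85e-08) and 1.55 ± 0.14 (adjusted p = 5.73e-08). CCND1, which encodes cyclin D1, changed by -1.50 ± 0.09 (adjusted p = 2.93e-10) and -1.33 ± 0.09 (adjusted p = 1.53e-09). In control cells 8 of 24 rose and 3 fell with each inhibitor. Of the 24 tested genes the interaction passed as positive for 2 and as negative for 8 with each inhibitor (medians -0.23 and -0.21). Of all genes 12.1% were positive and 14.2% negative with IMP1088, and 14.4% and 15.9% with DDD86481. PIM1 was among the positive ones, at 1.68 ± 0.19 (adjusted p = 4.51e-06) and 1.61 ± 0.19 (adjusted p = 6.95e-06), whereas the interaction of SOCS3 was negative.

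Genes that release receptor chains and cytokines from the cell surface were the next list, since shed IL6R can carry IL6 to cells that lack the chain. In senescence with DMSO 2 of 6 rose and 4 fell (median -0.48). RHBDF2 and RHBDF1, which encode iRhoms that mature the sheddase ADAM17, rose by 3.14 ± 0.14 (adjusted p = 3.47e-14) and 2.21 ± 0.11 (adjusted p = 1.82e-13). TIMP3, which encodes an inhibitor of ADAM17, changed by -2.26 ± 0.13 (adjusted p = 2.71e-12). In senescent cells 1 rose and 4 fell with IMP1088 and 1 rose and 5 fell with DDD86481. ADAM17 itself rose by 0.62 ± 0.10 (adjusted p = 2.76e-05) and 0.78 ± 0.10 (adjusted p = 2.16e-06). TIMP3 changed by -1.94 ± 0.13 (adjusted p = 7.25e-10) and -1.84 ± 0.13 (adjusted p = 1.53e-09). In control cells 1 rose and 1 fell with IMP1088 and 2 rose and 1 fell with DDD86481.

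Regulators of IL6 transcription and of the stability of its transcript formed the last list. In senescence with DMSO 8 of 16 rose and 5 fell (median 0.15). ZC3H12A, whose product degrades the IL6 transcript, rose by 4.15 ± 0.18 (adjusted p = 4.63e-14), NFKBIZ, a nuclear cofactor of NF-kappaB, rose by 1.90 ± 0.19 (adjusted p = 2.05e-08), and ZFP36L2 changed by -3.32 ± 0.11 (adjusted p = 4.92e-16). In control cells 7 rose and none fell with IMP1088 and 10 rose and none fell with DDD86481 (medians 0.34 and 0.40), beside 16.3% and 17.8% of all genes higher. ZFP36, which destabilises cytokine transcripts, rose there by 1.28 ± 0.19 (adjusted p = 4.55e-05) and 1.26 ± 0.19 (adjusted p = 5.06e-05), and its relative ZFP36L1 by 1.02 ± 0.14 (adjusted p = 1.09e-05) and 1.02 ± 0.14 (adjusted p = 1.04e-05). In senescent cells ZFP36 rose by 0.73 ± 0.21 (adjusted p = 0.00855) and 0.83 ± 0.21 (adjusted p = 0.00364), but ZFP36L1 changed by -0.61 ± 0.14 (adjusted p = 0.00108) and -0.82 ± 0.14 (adjusted p = 6.16e-05). There 3 rose and 1 fell with IMP1088, and 4 rose and 1 fell with DDD86481. CEBPB, an activator of IL6 transcription, rose in senescent cells by 0.53 ± 0.14 (adjusted p = 0.00424) and 0.81 ± 0.14 (adjusted p = 0.000108), and in control cells by 0.88 ± 0.14 (adjusted p = 8.99e-05) and 0.94 ± 0.14 (adjusted p = 4.37e-05).

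**Figure D4:**
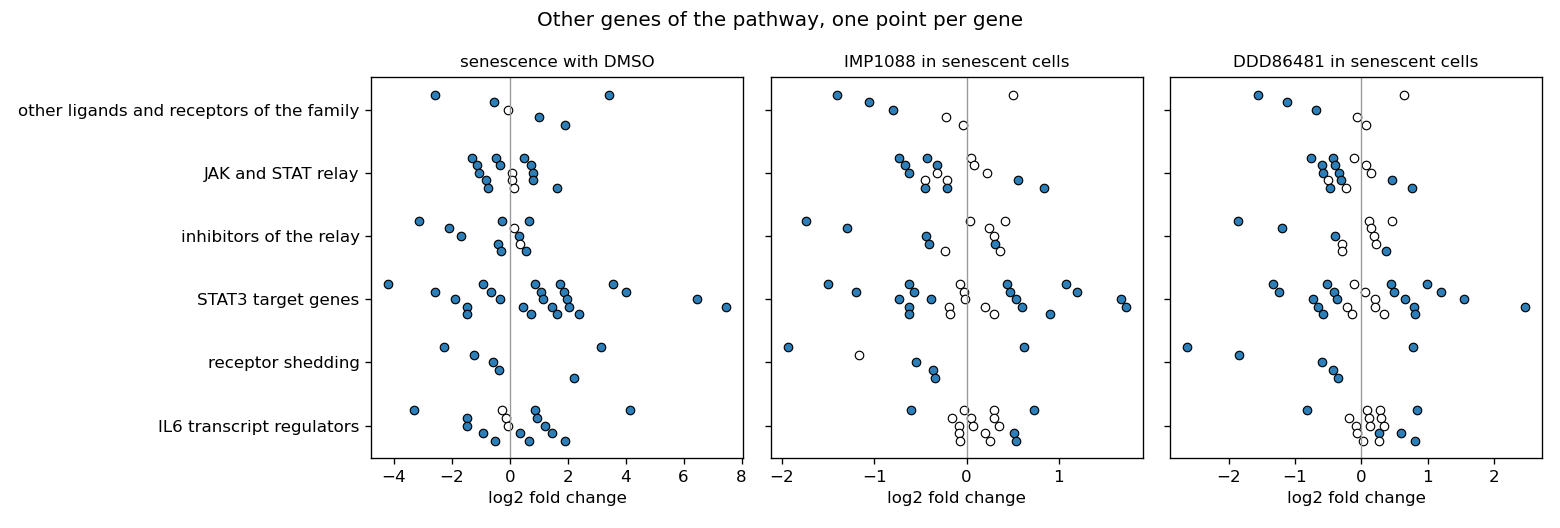
Log2 fold change of each tested gene of the 6 pathway lists (rows, with points spread vertically for visibility) in senescence with DMSO and with each inhibitor in senescent cells, where filled points passed an adjusted p of 0.05 and the axes differ between panels. Most lists hold genes on both sides of 0, and the SAA1 and SAA2 points at the right of the first panel rest on controls of at most 2 counts.

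The genes whose log2 CPM followed each member most closely over the 18 libraries were found among 12744 tested genes with a mean of at least 1 CPM. For IL6 they were HCCS, UBE2K and ANKRD39 (Pearson r = 0.990, 0.989 and 0.989), for LIF they were IER3, CTSS and MT2A (0.996, 0.994 and 0.992), and for IL11 they were MMP12, MIR3142HG and SPRY2 (0.995, 0.995 and 0.994). For LIFR they were RHOBTB3 and ANGPT1 (0.995 and 0.994), for IL6R MFSD6, PLPP3 and RSPO2 (0.993, 0.993 and 0.992) and for IL6ST FBN2, TRIO and AMOTL1 (0.991 for each). OSMR was followed by ZHX3 and NR3C1 (0.942 and 0.936), CLCF1 by H2BC21, RNF113A and POR (0.868, 0.864 and 0.842) and SOCS3 by FBXW2, CCND2 and TMOD3 (0.857, 0.856 and 0.855). The 9 control and 9 senescent libraries form separate clusters, so these coefficients mostly carry that split and are a description. With Spearman's rho, at most 2 of a member's 3 closest genes were kept, and none for IL6, IL11, IL6ST, LIFR and SOCS3.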

How the data were processed

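RNA was measured by poly(A)-selected, directional, single-end RNA-seq in 18 libraries of 6 groups, as the labels give them. The authors deposited 1 table of raw counts per gene, not normalized. The submitters' processing notes name hg38, DRAGEN, STAR 2.7.8a and DESeq2 1.32.0 without their roles, while the study's methods name another build and aligner, so the annotation and strand setting behind the counts are not settled. The columns of DDD86481 carry the name PCLX001, which the labels tie to that compound. All 18 columns of samples were used and 0 were left out.

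Of 28266 gene rows, 6836 had no count. edgeR 4.0.16 (R 4.3.3, limma 3.58.1) was run with TMM scaling and filterByExpr, which left 14341 genes holding 99.962% of counts. One quasi-likelihood fit over 6 groups gave every comparison and the interactions, with Benjamini-Hochberg adjustment over all 14341 genes and a threshold of 0.05. Values are log2 fold changes ± SE with 95% intervals. CPM are counts scaled to the TMM-adjusted total of each library (log2 CPM with a prior count of 2). Library totals ran from 16143716 to 23189950 counts, and the floor of 3 counts stood at 0.121 to 0.187 CPM, which covers counting error only. Exonic lengths came from GENCODE and promoters and positions from RefSeq (GRCh38.p14). The script was tested on simulated data. No 2 libraries agreed within sampling noise.

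Within-group deviations of same-numbered libraries correlated over 0.1 in all 3 pairs for control DMSO with control IMP1088 (0.394, 0.123 and 0.231). That held in none of the 10 other pairs of groups checked. The labels do not state a pairing, and the main fit had no replicate block, so its values are unpaired for every comparison. The fit with a replicate block was an alternative, beside RLE and upper quartile scaling, DESeq2 1.42.0, no filter, fits of only the groups compared and leaving out each library. The members, lists and tests were chosen with earlier results of these data known. All 9 members were named, and from each list the 3 genes with the largest change among those past the threshold in a comparison were eligible for naming. The 3 genes most like a member were those with the highest Pearson r. A few genes that these rules would name are not reported here, but they stay in the counts.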

Additional observations from a re-analysis of the deposited data

Results flagged for a closer look

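The effect of an inhibitor differed between senescent and control cells, by the interaction test, for 4 of the 9 genes. IL6 was higher in the senescent contrast by 1.38 on the log2 scale with IMP1088 (adjusted p = 0.0146, edgeR quasi-likelihood) and by 1.69 with DDD86481 (adjusted p = 0.00388), and control DMSO replicate 3 held the most IL6 of the control libraries. LIFR differed by -0.87 with IMP1088 and -0.86 with DDD86481, from senescent libraries that held at most 18.7 CPM. SOCS3 differed by -0.94 with IMP1088 and -0.75 with DDD86481, and IL6ST by -0.60 with DDD86481. The IL6ST difference was -0.38 without control DMSO replicate 3 (adjusted p = 0.0499), and its call was lost in 8 of 12 fits that left out 1 library. Both interactions share the DMSO libraries, and 26.2% and 30.3% of all genes tested passed the same tests.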

How the results depend on the processing

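In senescence with DMSO the calls of IL6, LIF, IL11, IL6R, IL6ST and LIFR were kept under every alternative, as were those of LIFR and SOCS3 with each inhibitor in senescent cells. Fits of only the groups compared called 2716 genes (4829 with all libraries) and 1 member with IMP1088 in control cells, 2842 genes (5242) and 2 members with DDD86481 in control cells, and 7841 genes (6374) and 7 members with IMP1088 in senescent cells. Upper quartile scaling moved the median of all genes in senescence with DMSO from -0.05 to -0.21, with IMP1088 from -0.03 to -0.14 and with DDD86481 from -0.04 to -0.15. Under it OSMR was -0.11 in senescence with DMSO, and with DDD86481 in control cells OSMR was -0.046 and SOCS3 -0.041, and the calls of LIF with DDD86481 in senescent cells (adjusted p = 0.0514) and of IL6R with each inhibitor in control cells (0.0836 and 0.0831) were lost. CLCF1 in senescence with IMP1088 was 0.019 with RLE, 0.019 with DESeq2 and 0.025 without a filter. Leaving out 1 library gave 2 to 4 members called with IMP1088 in senescent cells (2 without senescent DMSO replicate 1), 3 to 5 in the IMP1088 interaction (5 without control DMSO replicate 1) and 2 to 5 in the DDD86481 interaction. It turned log2 fold changes near 0 within these ranges: with IMP1088 in control cells OSMR -0.31 to 0.095, IL11 -0.37 to 0.21, IL6ST -0.065 to 0.34 and SOCS3 -0.18 to 0.25. With DDD86481 in control cells they were OSMR -0.21 to 0.20 and SOCS3 -0.15 to 0.18. OSMR in senescence with DMSO ranged from -0.18 to 0.23, CLCF1 in senescence with IMP1088 from -0.071 to 0.078 and IL11 with IMP1088 in senescent cells from -0.050 to 0.16. In the interactions IL11 ranged from -0.092 to 0.49 (IMP1088), CLCF1 from -0.090 to 0.24 and IL6R from -0.050 to 0.15 (DDD86481). The cause of these changes was not tested. The replicate block changed 1 call of a member, SOCS3 in senescence with DDD86481 (-0.38, adjusted p = 0.0554), which RLE and DESeq2 also ended (0.0681 and 0.0666). With 3 libraries a group, small changes such as those of IL6R and CLCF1 lie near the limit of what could be called. CLCF1 was nonetheless called under every alternative with DDD86481 in senescent cells (highest adjusted p = 0.0467). The same held with IMP1088 in control cells (highest adjusted p = 0.0398), but not with DDD86481 in control cells.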
